A study of Arabidopsis thaliana with 4 samples.

Results

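The TRICHOME BIREFRINGENCE-LIKE (TBL) genes of Arabidopsis thaliana were followed in rosette leaves of plants that had lost nitrate, phosphate or potassium. A gene was selected on measured values, namely a symbol starting with TBL in the gene table and a signal above 25 on at least 1 of the 4 arrays, and it was named only from probe sets assigned to a single gene. The array named 12 TBL genes through 13 probe sets, out of 3602 genes named in all, and 5 of the 12 met the rule. These were TBL23, TBL24, TBL26, TBL37 and TBL45, with 1 probe set each. The ratios below belong to the comparison by which the genes were chosen, so they are given as a description and no test supports them.

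TBL proteins are plant enzymes of the Golgi apparatus that attach acetyl groups to the polysaccharides of the cell wall. Acetylation changes how hemicelluloses and pectins pack, bind to cellulose and yield to wall-degrading enzymes. Members differ in substrate: some act on xylan, some on xyloglucan, some on pectin, and TBL23, TBL24 and TBL26 belong to a group that acetylates mannan. The substrates of TBL37 and TBL45 are not described here.

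The series holds 4 single-colour Affymetrix arrays of leaf RNA from ecotype Col-5, 1 per condition. All plants grew on agar medium with sucrose in a 16 h day until day 21 and then in hydroponics under constant light at 24 °C and 80% humidity, and leaves were taken 28 h after nutrient removal. The full solution contained 0.25 mM KH2PO4 and 0.5 mM KOH. The nitrate-free solution lacked calcium nitrate and had 4 mM calcium sulphate added, although the labels name no nitrate salt in the full solution, which leaves its nitrate content unknown. The phosphate-free solution lacked KH2PO4 and had 0.125 mM potassium sulphate added. The potassium-free solution lacked KH2PO4 and KOH and had 0.27 mM calcium dihydrogen phosphate added, so KH2PO4 was absent from both of these solutions. For the phosphate-depleted sample the nutrient letters of the title do not match those of the source name; the source name and the written treatment, which names phosphate, were followed. With 1 array per condition no value has a replicate error, and every ratio describes these arrays only. The full-nutrient array, the reference of the main ratios, is labelled with 312 masked cells and 183 outlier cells, while the depleted arrays have 0 masked cells and 9 to 50 outliers, and the part of this in the ratios was not tested. In leaf RNA, fewer cells expressing a gene and less RNA per cell cannot be told apart.

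TBL37 was the member with the highest ratio without phosphate. Its signal was 42.4 on the full-nutrient array, 47.0 without nitrate, 126.7 without phosphate and 139.1 without potassium. The phosphate and potassium arrays were high and the other 2 were low. Relative to the full solution TBL37 was 2.99-fold higher without phosphate, 3.28-fold higher without potassium and 1.11-fold higher without nitrate. Among the 4464 probe sets that met the same signal rule, 41 had a phosphate ratio at least as high, or 0.918%.

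TBL26, of the mannan-acetylating group, had the highest ratio without potassium. Its signal was 32.1 with full nutrients, 33.0 without nitrate, 57.2 without phosphate and 124.3 without potassium. The potassium array stood above the other 3, and the phosphate array was intermediate. TBL26 was 3.87-fold higher than the full-nutrient array without potassium, a ratio that 94 of the 4464 probe sets reached or passed (2.11%). Without phosphate it was 1.78-fold higher and without nitrate 1.03-fold higher.

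TBL45 was the only one of the 5 members with its highest signal on the full-nutrient array. Its signals of 161.2 with full nutrients, 159.6 without nitrate and 161.0 without phosphate lay within 1.6 units of each other. On the potassium array the signal was 93.0, 1.73-fold below the full-nutrient array. This stayed short of 2-fold, and 307 of the 4464 probe sets (6.88%) had a potassium ratio at least as low. TBL45 thus differed from TBL26 and TBL37 in direction on the potassium array.

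**Figure D1:**
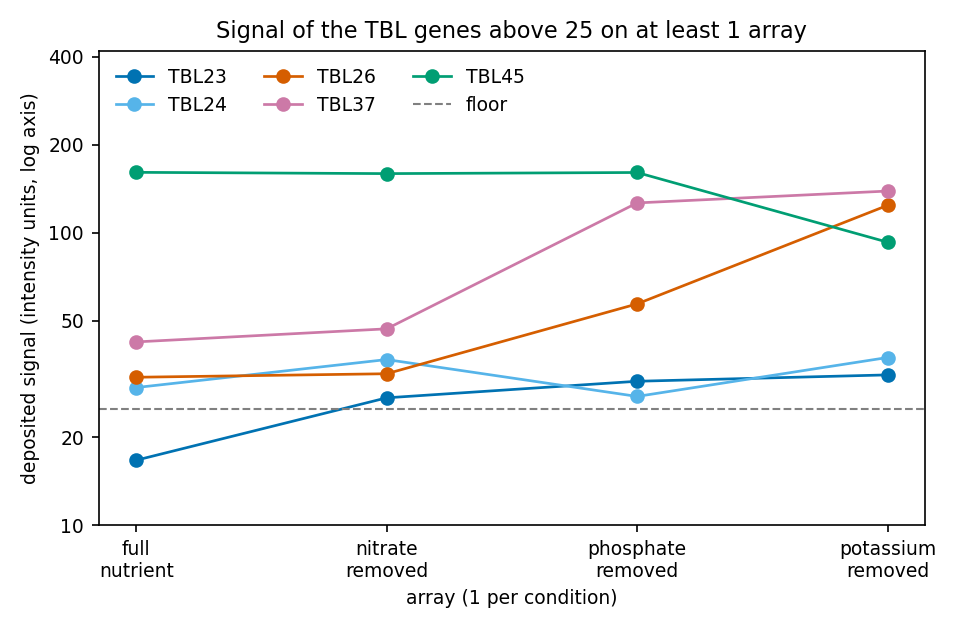
Deposited signal (log axis, intensity units) of the 5 TBL genes on each of the 4 arrays, with the floor of 25.04 as a dashed line; the lines join the points of a gene and carry no order of conditions. TBL37 was high on the phosphate and potassium arrays (126.7 and 139.1), TBL26 was highest on the potassium array (124.3), and TBL45 was lowest there (93.0).

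TBL23 and TBL24, the other members of the mannan group that met the rule, stayed near the floor of 25.04. Signals below the floor were not given an order in the ratios. TBL24 had signals of 29.6 with full nutrients, 36.9 without nitrate, 27.6 without phosphate and 37.5 without potassium. The phosphate value was the lowest and no pair of these arrays differed by as much as 1.5-fold. TBL23 had signals of 16.7, 27.3, 31.1 and 32.7 in the same order of arrays, so its full-nutrient value lay below the floor. Its ratios are therefore lower bounds, at least 1.09-fold higher without nitrate, at least 1.24-fold without phosphate and at least 1.31-fold without potassium. The 3 mannan-group genes thus had unlike ratios on the potassium array, 3.87-fold for TBL26 against 1.27-fold for TBL24 and a bound of 1.31-fold for TBL23. With a full-nutrient signal below the floor, the true ratio of TBL23 could be larger than its bound.

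Counted at 2-fold from the full-nutrient array, 2 of the 5 members were higher without potassium (TBL26 and TBL37), 1 was higher without phosphate (TBL37) and none was higher without nitrate. No member was 2-fold lower on any depleted array. At 1.5-fold, 2 members were higher without phosphate (9.41% of all probe sets that met the signal rule) and 1 was lower without potassium (12.6%). Among all probe sets that met the signal rule, 6.74% were at least 2-fold higher and 3.16% lower without potassium. The shares were 3.43% higher and 1.32% lower without phosphate, and 0.784% higher and 1.05% lower without nitrate. Among the 2388 probe sets whose geometric mean signal over the 4 arrays lay between those of the dimmest and the brightest member (28.9 to 140.1), 9.17% were higher without potassium and 4.23% without phosphate. This signal range was set after the data had been seen. The members were proposed with these ratios known, so nothing is read from the counts against these shares.

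The median log2 ratio of the 5 members was 0.12 without nitrate, 0.31 without phosphate and 0.39 without potassium, against 0.00 in each case over the probe sets that met the signal rule. All 3 medians were the bounds of TBL23 and so depended on the floor. With its full-nutrient signal set to the floor, TBL23 could not have a log2 ratio below 0. It met the signal rule only through the depleted arrays, so nothing is read from the sign of these medians. Over the same probe sets the central 90% of log2 ratios ran from -0.55 to 0.61 without nitrate, from -0.65 to 0.84 without phosphate and from -0.88 to 1.22 without potassium. TBL37 lay above that range in phosphate and potassium depletion and TBL26 in potassium depletion. All 5 members lay inside it in nitrate depletion. Within the arrays, 2 or more measured probe sets of the same gene differed by a median log2 range of 0.27, 0.24 and 0.30 in nitrate, phosphate and potassium depletion. This spread lies within arrays and does not hold the differences between plants or between hybridisations, which were not measured.

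**Figure D2:**
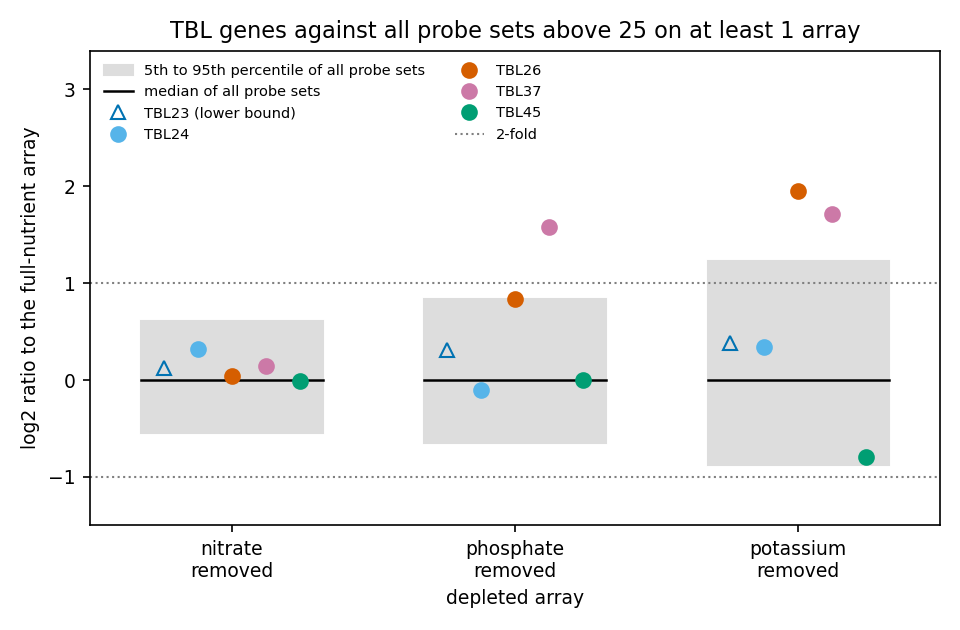
Log2 ratio of each TBL gene to the full-nutrient array for the 3 depletions, over a grey bar that spans the 5th to 95th percentile of the 4464 probe sets above 25 on at least 1 array. Open triangles are lower bounds for TBL23 and dotted lines mark 2-fold; TBL37 (1.58 and 1.71) and TBL26 (1.95) lie above the grey bars.

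Direct ratios between depleted arrays do not use the full-nutrient array. TBL26 was 2.17-fold higher without potassium than without phosphate and 3.77-fold higher than without nitrate. TBL37 was 1.10-fold higher without potassium than without phosphate, 2.96-fold higher than without nitrate, and 2.70-fold higher without phosphate than without nitrate. TBL45 was 1.73-fold lower without potassium than without phosphate and 1.72-fold lower than without nitrate. The difference between TBL26 and TBL37 thus lay on the phosphate array, where TBL37 was about as high as without potassium and TBL26 was not. At 2-fold, 1 member was higher in potassium over phosphate (3.83% of all probe sets), 2 in potassium over nitrate (7.33%) and 1 in phosphate over nitrate (4.17%). The first of these, TBL26, was 1.82-fold with a pseudocount of 0.25 T in place of the floor, T being the common trimmed mean of the arrays, and so missed the limit there.

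In the order of the arrays, 4 of the 5 members (TBL23, TBL24, TBL26 and TBL37) were highest on the potassium array, as were 31.9% of all probe sets that met the rule. For TBL24 this order rests on signals of 37.5 and 36.9, which hardly differ. TBL23 (32.7 against 31.1) and TBL37 (139.1 against 126.7) also stood little above their phosphate signals, by log2 ratios of 0.07 and 0.13. Both ratios were below the median log2 ranges between probe sets of the same gene. On the full-nutrient array 3 members had their lowest signal (22.4% of all probe sets), and 1 member, TBL45, was lowest on the potassium array (31.6%). These shares rank the deposited signals without the floor, so for some probe sets they order values below it. TBL23 met the signal rule only through the depleted arrays, so it could not be highest on the full-nutrient array. Nothing is read from the counts of members against these shares.

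The potassium array also differed in the 5 leaf genes and in the 1 root marker that were named. The summed signal of 5 leaf photosynthesis genes was 25811 with full nutrients and 27894, 22186 and 15277 without nitrate, phosphate and potassium, over 7 probe sets of which 3 belong to PSAE-1. Taken by gene, 4 of the 5 were below the full-nutrient array without nitrate, all but PSAE-1, and 5 without phosphate and without potassium, with median log2 ratios of -0.03, -0.27 and -0.71. BGLU21, a beta-glucosidase and the 1 root marker of the list that the array named, had signals of 1.7, 0.8, 5.3 and 377.2 in the order of the sums. The lists were chosen with earlier results of these data known, so nothing about tissue is read from BGLU21. No gene of the trichome, xylem or flower and seed marker lists was named, so these tissues were not measured here. The part of tissue makeup in the TBL26, TBL37 and TBL45 ratios was not tested.

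To place the 2 members past 2-fold among other leaf transcripts, the log2 ratios in the 3 depletions were compared by Euclidean distance over 1428 single-gene probe sets above the floor on all 4 arrays. Of these, GH3.3 was nearest to TBL37, at a distance of 0.31. GH3.3, an auxin-conjugating enzyme gene, had a signal of 39.7 with full nutrients and signals of 36.6, 128.4 and 120.2 without nitrate, phosphate and potassium. AT4G26060 (0.38), the zinc finger gene STZ (0.40), AT4G36640 (0.52) and AT4G02940 (0.56) followed. For TBL26 the nearest was AT1G05340 at 0.24, with signals of 166.7, 161.9, 258.4 and 601.5 in the same order. AT4G33150 (0.33), AT4G36640 (0.33), the glycosyltransferase gene UGT73B1 (0.42) and the transcription factor gene WRKY6 (0.45) came next. AT4G36640 was thus among the 5 nearest genes of both. The distance between TBL26 and TBL37 themselves was 0.79, and TBL24 and TBL45 were at least 1.88 from either. TBL23, whose ratios are bounds, was 1.65 from TBL26 and 1.84 from TBL37. With a floor of 0.1 T these distances were 1.19 and 1.15, a recomputation added after the data were seen. These patterns share the full-nutrient array and rest on 4 arrays.

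**Figure D3:**
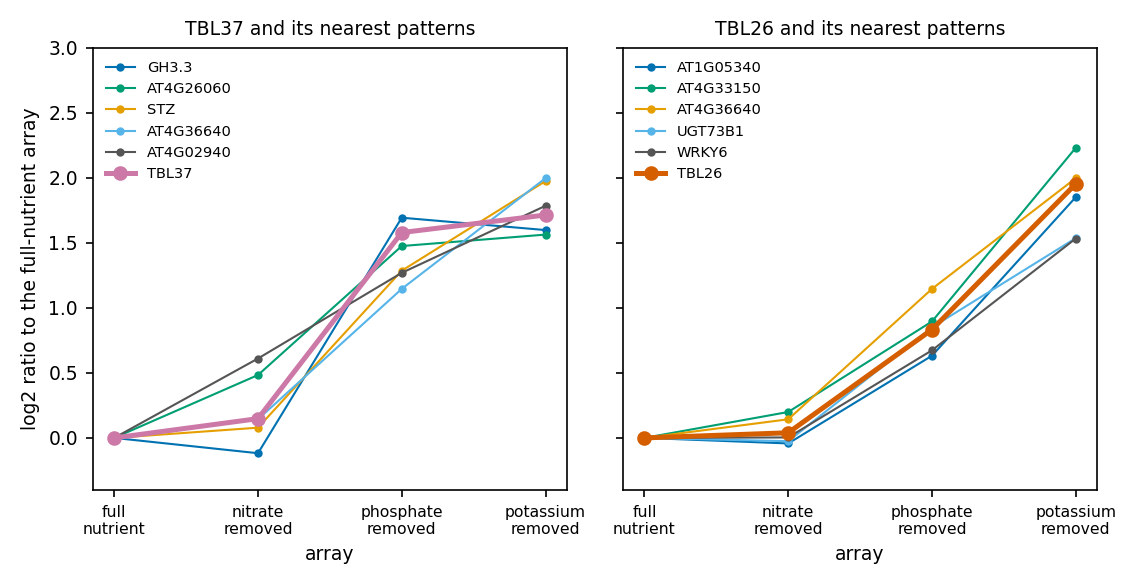
Log2 ratio to the full-nutrient array of TBL37 (left) and TBL26 (right), drawn thick, with the 5 named genes nearest to each by Euclidean distance over the 3 depletions. TBL37, GH3.3 and AT4G26060 were about as high without phosphate as without potassium; the other 3 genes near TBL37, TBL26 and all 5 genes near it were higher without potassium.

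The 7 TBL genes that did not meet the rule had signals between 0.4 and 17.8 on all arrays. They were TBL15, TBL30, TBL33, TBL34, TBL39, TBL42 and TBL43, of which TBL30, TBL33 and TBL34 are known to act on xylan. TBL23, with a highest signal of 32.7, lay just inside the rule, and TBL39, with a highest signal of 17.8 on the potassium array, just outside. No ratio is given for these 7, since both sides lay below the floor. A further family member, AT2G31110 (TBL40 among its synonyms), is not covered by the rule because its current symbol does not start with TBL. Its signal was 44.8 with full nutrients, 59.2 without nitrate, 43.2 without phosphate and 63.8 without potassium, and none of its ratios to the full-nutrient array reached 1.5-fold.

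**Figure D4:**
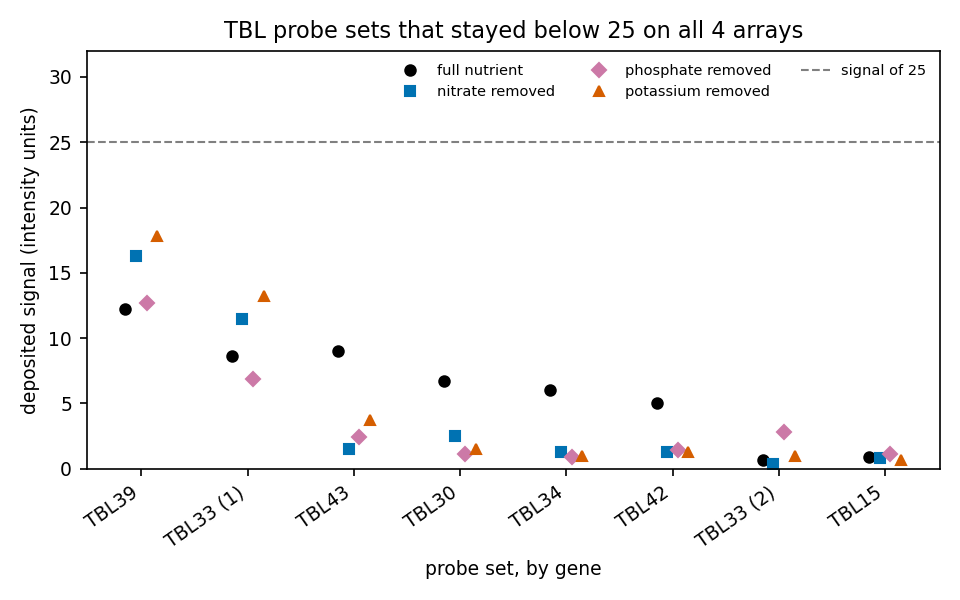
Deposited signal (intensity units, linear axis) of the 8 probe sets of the 7 TBL genes below 25 on every array, with the 4 arrays as separate marks. The highest value was 17.8, for TBL39 on the potassium array.

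Other cell wall genes were read from lists of polysaccharide synthesis, wall loosening and lignin. The array named 20 genes of these lists and 9 had a probe set above 25 on at least 1 array. None of the listed acetyl donor, acetyl esterase or xylan genes was named, so the direct partners of TBL enzymes were not measured. At 2-fold, 1 of the 9 was higher without nitrate, none was past it without phosphate, and 1 was higher and 1 lower without potassium. The shares over all probe sets that met the signal rule, given above, were 0.784% higher without nitrate and 6.74% higher and 3.16% lower without potassium. CCOAMT, CSLA01 and CSLC5 passed 25 on 1 array each, so a ratio above 0 on that array was set by the filter. EXPB1, the gene higher without nitrate, passed 25 only on the nitrate and phosphate arrays. Its full-nutrient signal was under the floor, so its ratios could not be below 0. Neither the counts nor the medians therefore support a shift of the wall genes. The median log2 ratios were 0.04, 0.00 and 0.00, as against 0.00 over all probe sets that met the signal rule. The values of 0.00 without phosphate and without potassium came from genes at the floor on both arrays. With a floor of 0.1 T both medians were 0.20.

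Expansins, which loosen the wall, supplied 2 of the 3 values past 2-fold. The signal of EXPA8 was 1225.2 with full nutrients, 2172.0 without nitrate, 1016.7 without phosphate and 509.9 without potassium. It was 2.40-fold lower than the full-nutrient array without potassium and 1.77-fold higher without nitrate. EXPB1 had 19.9 with full nutrients, under the floor, and 66.3 without nitrate, at least 2.65-fold higher, while its second probe set stayed below 25 on all arrays. CCOAMT, a methyltransferase gene of the lignin list, was below the floor on the other 3 arrays and at 79.6 without potassium, at least 3.18-fold higher than with full nutrients. The other 6 genes, EXPA4, EXPA15, XTH32, CSLC5, CSLA01 and COB, had log2 ratios between -0.65 and 0.87. Among them CSLA01, a mannan synthase gene that makes the backbone the TBL23 to TBL26 group modifies, had signals of 1.4, 6.4, 2.1 and 25.6, the last on the potassium array and just above the floor. CSLA03, the other gene of the mannan list, stayed below 25 on all arrays. Its signals were 10.9, 16.7, 12.5 and 9.1 in the same order, lowest on the potassium array.

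**Figure D5:**
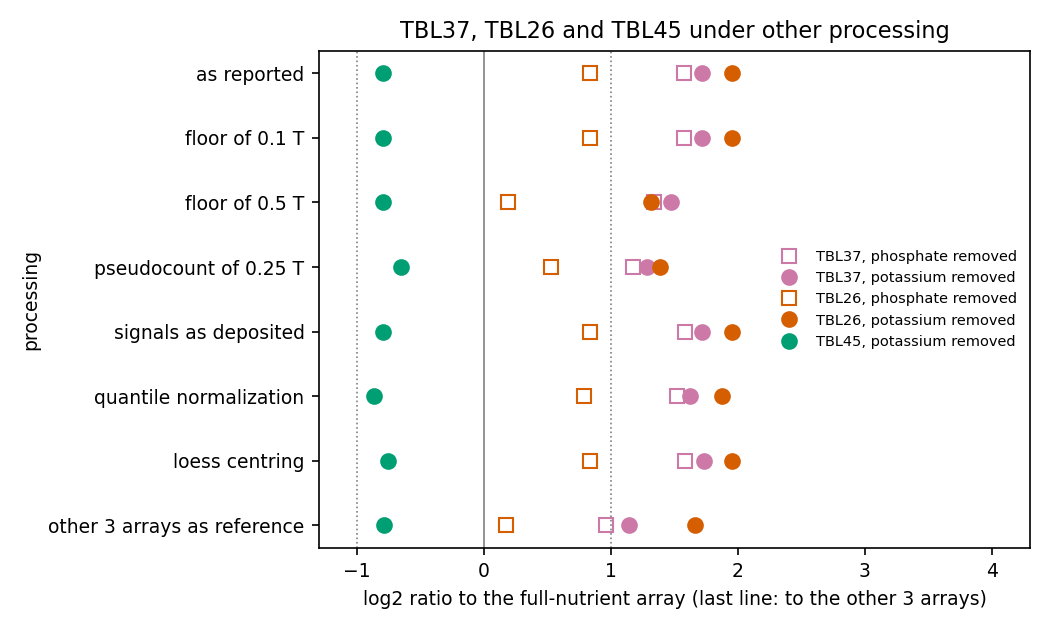
Log2 ratios of TBL37, TBL26 and TBL45 under the reported processing (top line) and 7 alternatives, with T the common trimmed mean of the arrays and dotted lines at 2-fold. The potassium ratios of TBL37 and TBL26 stayed past 2-fold (1.14 to 1.73 and 1.31 to 1.95), and TBL45 stayed between -0.87 and -0.66. The 1.31 of TBL26, with a floor of 0.5 T, is a lower bound.

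The potassium ratios of TBL26 and TBL37 kept their side of the 2-fold limit in all 7 alternatives, as the plot of processing alternatives shows. TBL26 ranged from 2.48-fold to 3.87-fold and TBL37 from 2.20-fold to 3.32-fold. The 2.48-fold of TBL26 came with a floor of 0.5 T, above its full-nutrient signal, and is a lower bound. Without phosphate, TBL37 was 1.94-fold higher when the mean of the other 3 arrays, which includes the high potassium array, served as the reference. TBL26 without phosphate was 1.12-fold higher with that reference. With a floor of 0.5 T, above its full-nutrient signal, it was at least 1.14-fold higher. With the mean of the other 3 arrays as reference, the nitrate ratios of TBL26 and TBL37 turned to 1.85-fold and 1.93-fold lower, since that mean holds the high phosphate and potassium values.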

How the data were processed

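The authors deposited 1 intensity value per probe set and array, on a linear scale. How the probe signals were summarised and scaled is not stated in the labels. The deposited intensity values had trimmed means (2% at each end) of 100.1 to 100.2 on each array, and 47.5% to 49.6% of probe sets lay above the floor. Of 8297 probe sets, 50 Affymetrix controls were removed. The platform annotation gave 1 gene for 3794, several for 70 and none for 4383, and current symbols came from the TAIR10.1 gene table, matched by Entrez identifier for 3784. Each array was rescaled to T, the average trimmed mean of 100.16, then floored at 0.25 T (25.04) and converted to log2 (numpy 2.4.6, pandas 2.3.3), and printed signals are as deposited. No test was possible. The number of arrays limits the precision. The ratio steps were tested on simulated data, with changes placed only in probe sets brighter on the full-nutrient array than any member. That test therefore does not cover signals near the floor. All TBL probe sets were named. Of the wall lists, genes past 2-fold were named, and the 5 nearest genes of each member past 2-fold. A wall gene's value is the mean over its probe sets above 25. Members and lists were chosen with earlier results of these data known. A symbol prefix that matched unrelated genes (MSR) was narrowed after matching. Protein and promoter sequences were not used here. Alternatives changed the floor, pseudocount, scaling, loess centring (statsmodels 0.14.6, span 0.4), reference, unit and fold limit.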

Additional observations from a re-analysis of the deposited data

How the results depend on the processing

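No paired analysis was possible because each condition has 1 array and no result comes from a test. Member medians depended on the floor, through TBL23 and the other dim members. With a floor of 0.1 T the median log2 ratio was 0.83 without phosphate and 0.97 without potassium, and with a floor of 0.5 T it was 0.00 in both. With the other 3 arrays as the reference, 0 members were 2-fold higher without phosphate, in place of 1. A limit of 1.5-fold gave 2 higher members without phosphate (TBL26 and TBL37) and 1 lower member without potassium (TBL45). The other 92 of 99 recomputed counts and medians of members and wall genes stayed within the median spread between probe sets of a gene (medians) or within 1.5 times (counts). Some of these could hardly move. Each member has 1 probe set, so taking 1 value per gene changed nothing, and the deposited arrays already had nearly equal trimmed means. Of the single-gene ratios, 187 of 216 stayed within that spread and 29 moved, the cause beyond floor and reference not being tested, and no ratio past 2-fold changed sign. The reference of the other 3 arrays turned the log2 ratios of TBL26 and TBL37 without nitrate from 0.04 and 0.15 to -0.89 and -0.95. TBL26 in potassium over phosphate missed 2-fold with the pseudocount (0.86). Signals near the floor limit TBL23, TBL24 and the full-nutrient values of TBL26 and TBL37.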
